A study of Mus musculus with 6 samples.

Results

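The histone cluster genes encode the core histones H2A, H2B, H3 and H4 and the linker histone H1, and they were measured in C2C12 cells, mouse myoblasts that stop dividing and fuse into myotubes in low serum. They were chosen by symbol alone, as the genes whose name in the array annotation begins with H1f, H2ac, H2bc, H3c, H4c or one of the older Hist prefixes. The rule found 32 genes with a row of their own among 18820 genes, and 32 further rows that name only histone genes, several in each, among 1881 rows naming several genes. C2C12 myoblasts were differentiated in 2% horse serum for 6 days and transfected on day 6 with 50 nM of a locked nucleic acid oligonucleotide. It was either an inhibitor of miR-382-5p (3 silenced arrays) or the Negative Control A oligonucleotide (3 control arrays). Total RNA was taken 24 h later, on day 7, from both groups, and both groups carried the same lipid transfection reagent. Cells were of 1 line, and no label says whether the 3 arrays of a group came from separate cultures, so p-values measure only the spread between these arrays. The question set by the design is what inhibition of miR-382-5p does to gene expression in myotubes. The arrays do not measure the mature miRNA, so inhibition itself was not checked here.

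Each nucleosome wraps DNA around an octamer of H2A, H2B, H3 and H4, and H1 binds the linker DNA that enters and leaves it. Most cluster genes are replication-dependent: they lack introns, are transcribed mainly in S phase, and give mRNAs that end in a stem-loop bound by SLBP instead of a poly(A) tail. Myoblasts leave the cell cycle when they fuse, and proliferating cells that remain between the myotubes still make replication-dependent histone mRNA. A few genes named by the rule stand outside that program, among them H1f10, a replication-independent linker histone, and H1f6, H1f7, H1f8, H2ac1 and H2bc1, known mainly from germ cells. Arrays of this kind prime cDNA synthesis along the whole transcript, so RNAs without a poly(A) tail are also labelled.

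The inhibited miRNA is shown first, since it defines the groups; capitals mark its seed, bases 2 to 8, and the sequence is RefSeq's on GRCm38.p6.
miR-382-5p, chr12:109733781-109733802 (+ strand): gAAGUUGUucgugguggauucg

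Promoters were available from RefSeq for 28 of the 32 genes; H2bc21, H2bc4, H3c7 and H4c14 had no entry. The 250 bases before the start site are printed for the 4 genes with the smallest unadjusted p among those lower in silenced arrays, and for H2bc14, 1 of the 2 genes with a higher mean there. Capitals mark CCAAT, the pentamer known to be bound by NF-Y; ATTTGCAT, the octamer known to be bound by POU2F1; and TATAAA, each on either strand (ATTGG, ATGCAAAT and TTTATA on the other strand), and no matches of different motifs overlapped.
H2bc9 promoter, chr13:23543445-23543694 (- strand): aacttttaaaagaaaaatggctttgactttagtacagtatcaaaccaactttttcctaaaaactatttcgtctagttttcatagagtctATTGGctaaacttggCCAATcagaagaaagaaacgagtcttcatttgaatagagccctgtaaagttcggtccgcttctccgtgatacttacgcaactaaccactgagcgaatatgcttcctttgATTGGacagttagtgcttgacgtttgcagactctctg
H2bc3 promoter, chr13:23746484-23746733 (+ strand): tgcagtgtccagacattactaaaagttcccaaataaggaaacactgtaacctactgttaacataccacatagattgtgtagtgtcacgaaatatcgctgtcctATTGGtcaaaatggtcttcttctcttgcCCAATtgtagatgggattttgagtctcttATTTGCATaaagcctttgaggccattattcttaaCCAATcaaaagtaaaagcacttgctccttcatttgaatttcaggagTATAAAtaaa
H2bc14 promoter, chr13:21721794-21722043 (+ strand): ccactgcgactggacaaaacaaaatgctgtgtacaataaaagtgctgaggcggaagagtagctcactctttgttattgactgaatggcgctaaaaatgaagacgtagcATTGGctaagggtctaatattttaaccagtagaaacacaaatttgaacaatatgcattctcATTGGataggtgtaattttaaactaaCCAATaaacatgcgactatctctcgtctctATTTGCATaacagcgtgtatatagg
H4c9 promoter, chr13:22041363-22041612 (- strand): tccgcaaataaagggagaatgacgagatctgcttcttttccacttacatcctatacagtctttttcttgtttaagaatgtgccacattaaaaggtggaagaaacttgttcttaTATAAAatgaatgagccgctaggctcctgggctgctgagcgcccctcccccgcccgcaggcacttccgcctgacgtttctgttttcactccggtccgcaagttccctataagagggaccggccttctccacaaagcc
H4c3 promoter, chr13:23698459-23698708 (- strand): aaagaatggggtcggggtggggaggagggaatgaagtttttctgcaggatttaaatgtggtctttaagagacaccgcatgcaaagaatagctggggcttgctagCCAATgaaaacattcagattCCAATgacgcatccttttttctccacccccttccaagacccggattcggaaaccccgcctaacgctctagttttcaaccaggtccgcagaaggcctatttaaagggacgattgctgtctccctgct

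The pentamer CCAAT was present in the promoters of H2bc9, H2bc3, H2bc14 and H4c3 and not in these letters in that of H4c9. Over the 28 promoters, 22 (78.6%) held CCAAT, against 33.8% of all 32851 RefSeq promoters of the same length. By class it was found in 6 of 6 H2A, 7 of 7 H2B, 6 of 8 H1, 1 of 2 H3 and 2 of 5 H4 promoters. The octamer ATTTGCAT stood on the forward strand of 5 of 7 H2B promoters and on the reverse strand of 4 of 6 H2A promoters, where 0.791% and 0.825% of all promoters hold it. None of the 8 H1, 2 H3 or 5 H4 promoters held it on either strand. TATAAA was found in 16 of 28 promoters (57.1%) and in 12.4% of all promoters. H2A and H2B genes often lie head to head, so that a pair can share 1 stretch of DNA. Among the genes under the rule with a RefSeq promoter, 8 such pairs of start sites lay 164 to 281 bases apart. All of them were an H2A beside an H2B gene. Pairs with a gene that had no entry, such as H2bc4, could not be counted. In the pairs of H2ac8 with H2bc8 and of H2ac1 with H2bc1, the 250 bases overlap. Each of these pairs holds the same octamer, which is counted under both classes above, and shares CCAAT matches too. The matches describe letters, not binding.

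**Figure D1:**
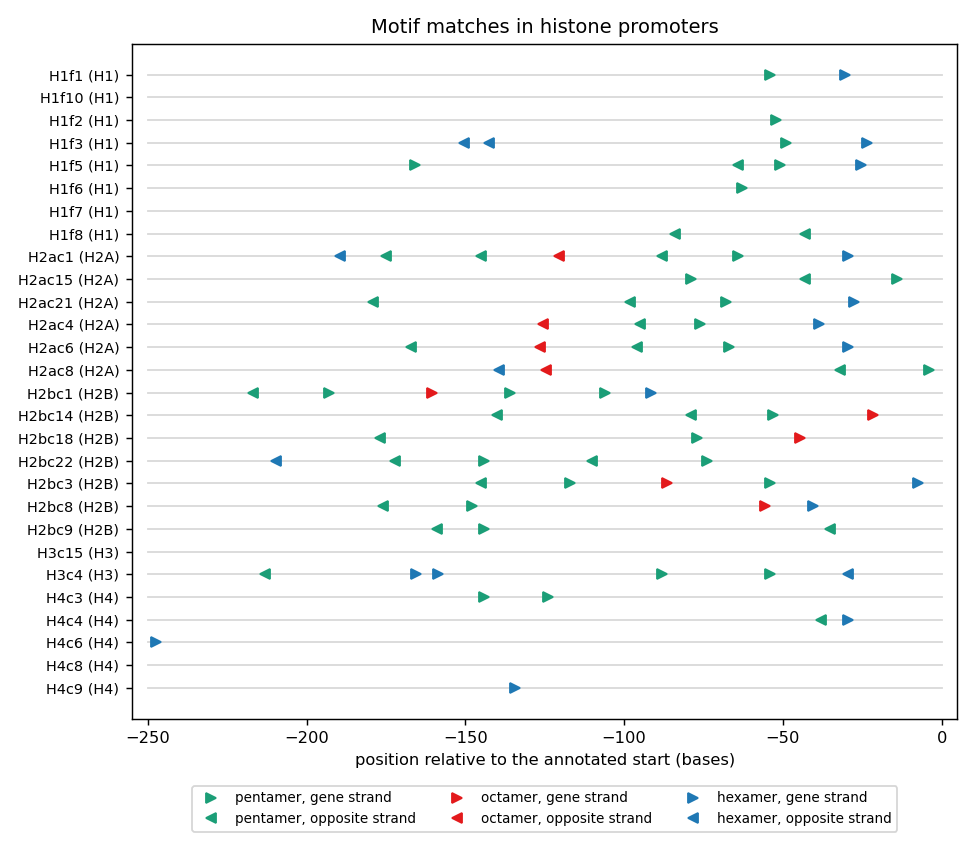
Positions of 3 short motifs in the 250 bases before the start site of the 28 histone genes with a RefSeq promoter, in bases from the start site, ordered by class; the pentamer is CCAAT, the octamer ATTTGCAT and the hexamer TATAAA. Arrowheads to the right are matches on the gene's strand, those to the left on the opposite strand; of the genes shown, the octamer is in 4 of 6 H2A and 5 of 7 H2B genes and in no others.

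Levels below are log2 values after robust multi-array averaging (RMA), which corrects background, normalizes and summarises the probes of a row on all arrays together; a level of 1 probe set is not compared with that of another. Arrays correlated with each other at 0.985 to 0.995 over the 11292 genes tested below. Of the 32 genes, 24 had a mean above 3.87, the 40th percentile of all genes, and were tested with 11292 genes in all. They were 5 of 8 H1, 4 of 6 H2A, 7 of 9 H2B, 2 of 3 H3 and 6 of 6 H4 genes. The 8 genes below that level were H1f6, H1f7, H1f8, H2ac6, H2ac8, H2bc21, H2bc22 and H3c7. Their array values lay between 1.72 and 4.09, with 4 means lower and 4 higher after silencing. In bulk RNA, fewer cycling cells and less histone mRNA per cell cannot be told apart.

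Of 26 myotube markers 26 passed the filter, which 11292 of all 18820 genes passed, so passing it does not identify a cell type. Their median level was 10.82 to 10.93 in control and 10.87 to 11.15 in silenced arrays. Among adipocyte markers 2 of 7 passed, and Adipoq, Fabp4, Plin1, Lep and Cidec did not; among osteoblast and chondrocyte markers 3 of 8 passed. Fibroblast markers passed in 8 of 9 cases, with medians of 10.56 to 10.85 in control and 10.48 to 10.88 in silenced arrays, and markers of undifferentiated myoblasts in 9 of 10, with medians of 5.78 to 6.32 and 5.92 to 6.65. Myotube markers had the higher mean in silenced arrays in 21 of 26 cases, where 52.7% of all tested genes did, with a median difference of 0.14. At an unadjusted p under 0.05, 7 were higher, where 319 of all 11292 tested genes were, and none was called. Myh1 and Myh3 differed by 0.36 and 0.26. For silenced against control, Id3 and the satellite cell factor Pax7 differed by -0.25 and 0.22, Postn and Lum by -0.24 and -0.60 in a fibroblast list with 4 of 8 lower and a median of -0.0082, Pparg and Cebpa by 0.060 and -0.033, and Sox9 and Bglap by 0.19 and -0.31. Between numbers 3 and 1, the values were 0.65 for Myh4, -0.49 for Cav3, -0.74 for Hey1, -0.82 for Id2, 1.21 for Lum, 0.66 for Dcn, 0.36 for Cebpa, 0.25 for Pparg, -0.23 for Bglap and -0.33 for Sox9. The part of these cell type markers in the histone values was not tested.

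For the comparison of silenced with control arrays, 0 of the 24 tested histone genes passed at an adjusted p of 0.05 (limma, 2-sided, Benjamini-Hochberg over all 11292 genes; smallest adjusted p 0.871), and 0% of all tested genes did. At an unadjusted p under 0.05, 3 histone genes were lower in silenced arrays (H2bc9, H4c9 and H4c3) and 0 were higher, where 4.80% of all tested genes lay under that p in either direction; the count was 6 without silenced replicate 1. With the replicate number as a block, which pairs the control and silenced arrays of a number, 0 were called and 8 lay under that unadjusted p. All 8 were lower (H1f5, H2ac15, H2ac4, H2bc18, H2bc3, H2bc9, H4c3 and H4c9), against 10.3% of all tested genes in either direction.

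Most histone means were lower in silenced arrays although no gene was called. Silenced arrays had the lower mean in 22 of 24 histone genes, whereas 52.7% of all tested genes had a higher mean in them. The median difference of silenced minus control was -0.14 over the histone genes (range -0.36 to 0.048) and 0.009 over all tested genes. The 24 genes share the same 6 arrays, so 1 array can move many of them together. The median deviation of the histone genes from their own means was 0.075, 0.10 and 0.0098 in control arrays 1, 2 and 3, and -0.0092, -0.035 and -0.17 in silenced arrays 1, 2 and 3. Every control array was above every silenced array in that median, by a narrow step between control 3 and silenced 1, with silenced 3 the farthest below. Within the pairs of equal number the median difference was -0.15, -0.086 and -0.13. In all 3 pairs 10 genes were lower and 1, H2bc4, was higher; over all tested genes 15.8% were lower and 19.7% higher in all 3. In 5 genes (H2bc9, H4c9, H1f3, H2ac15 and H2bc18) the 3 silenced arrays lay below the 3 control arrays, and in 0 above, where 4.87% and 6.94% of all tested genes did so.

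The 95% interval of the difference, computed without the pairing, included 0 for 21 of the 24 genes, with a median SE of 0.12 and a median of 0.27 from the estimate to either bound. With the replicate block it included 0 for 16 of the 24. By class the median difference was -0.15 for H1 (5 of 5 lower), -0.12 for H2A (4 of 4), -0.21 for H2B (5 of 7), -0.13 for H3 (2 of 2) and -0.12 for H4 (6 of 6). Leaving out H1f10, H2ac1 and H2bc1, a choice made after their values were seen, 19 of 21 genes were lower with a median of -0.17.

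**Figure D2:**
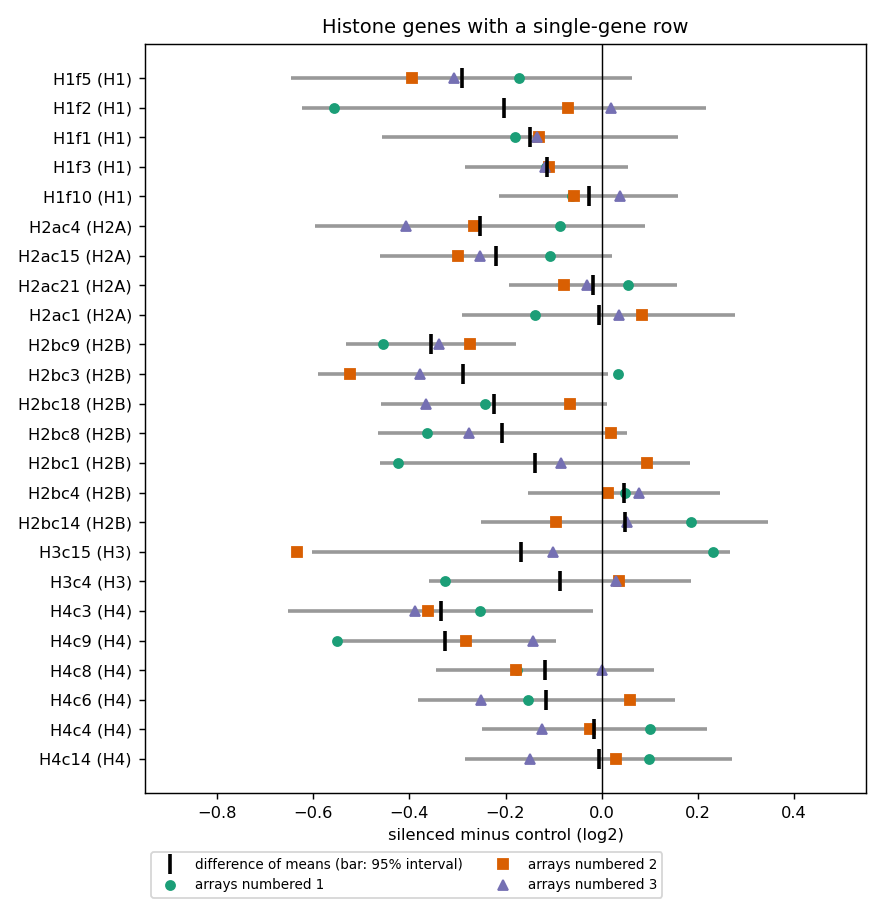
Silenced minus control (log2) for the 24 tested histone genes by class: black ticks give the difference of means over 3 silenced and 3 control arrays, grey bars its 95% interval, and coloured symbols the difference within arrays of number 1, 2 or 3. Ticks of 22 genes lie below 0, and 21 of 24 bars cross 0.

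H2bc9, which encodes an H2B, had the smallest unadjusted p. Its log2 levels were 7.89, 7.78 and 7.82 in control arrays 1 to 3 and 7.43, 7.51 and 7.48 in silenced arrays 1 to 3. The lowest control value exceeded the highest silenced value, and the groups did not overlap. The difference was -0.36 (SE 0.075, 95% interval -0.53 to -0.18), a 1.28-fold higher level in control arrays, with a limma p of 0.00193 from the fit across all genes and an adjusted p of 0.871. The pairs differed by -0.45, -0.27 and -0.34, so each contributed.

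H4c9, an H4 gene, had levels of 6.76, 6.58 and 6.46 in control and 6.21, 6.29 and 6.32 in silenced arrays. These groups did not overlap either, but the control arrays spread more widely than the silenced ones. The difference was -0.33 (SE 0.098, interval -0.56 to -0.09), or 1.25-fold, at a limma p of 0.0122. The gap was widest in pair 1, at -0.55, and narrowest in pair 3, at -0.14.

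H4c3, which encodes the same H4 protein as the other replication-dependent H4 genes, had levels of 7.35, 7.11 and 7.06 in control and 7.09, 6.75 and 6.67 in silenced arrays. Silenced array 1 lay above control array 3, so the groups overlapped. The difference was -0.33 (SE 0.14, interval -0.65 to -0.02) and the pairs gave -0.25, -0.36 and -0.39. The limma p was 0.0412 without and 0.00363 with the replicate block.

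H2bc3, a further H2B gene, had levels of 8.69, 9.12 and 8.85 in control and 8.72, 8.60 and 8.47 in silenced arrays. Control array 1 was below silenced array 1, so the groups overlapped, and control 2 stood highest. The difference was -0.29 (SE 0.13, interval -0.59 to 0.01) with a limma p of 0.0581, and 0.0467 with the block. Without control replicate 2 the difference was -0.17.

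H2bc14 and H2bc4 were the 2 tested genes with a higher mean in silenced arrays. H2bc14 had levels of 10.32, 10.36 and 10.07 in control and 10.50, 10.26 and 10.12 in silenced arrays, overlapping groups with a difference of 0.048 (SE 0.13, interval -0.25 to 0.35). H2bc4 had levels of 10.59, 10.53 and 10.65 in control and 10.64, 10.54 and 10.73 in silenced arrays, also overlapping, with a difference of 0.046 (SE 0.085, interval -0.15 to 0.25) that ranged from 0.00055 to 0.095 with 1 array left out. H2bc4 is the 1 histone gene with 2 rows of its own. The second row held 2.29, 2.58 and 2.24 in control and 2.09, 2.30 and 2.21 in silenced arrays, under the filter level and with the lower mean in silenced arrays.

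Among the remaining H2A and H2B genes, H2ac15 levels were 8.32, 8.53 and 8.27 in control and 8.21, 8.23 and 8.02 in silenced arrays, a difference of -0.22 with no overlap. H2bc18 levels were 7.46, 7.41 and 7.38 against 7.22, 7.34 and 7.02, also a difference of -0.22 with no overlap. In the linker histone H1f3 the levels were 4.56, 4.61 and 4.60 against 4.44, 4.50 and 4.49. The groups of H1f3 were separate by a small step, a difference of -0.11. H2ac21, at 12.44, 12.55 and 12.48 in control and 12.49, 12.47 and 12.45 in silenced arrays, differed by -0.018 with overlapping groups.

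The H4 genes H4c4 and H4c14 had differences near 0. H4c4 levels were 11.64, 11.75 and 11.60 in control and 11.74, 11.72 and 11.48 in silenced arrays, a difference of -0.016 (interval -0.25 to 0.22). H4c14 levels were 10.44, 10.61 and 10.41 against 10.54, 10.64 and 10.26, a difference of -0.0067 (interval -0.28 to 0.27). Both pairs of groups overlapped, and both intervals hold the differences of -0.12 estimated for H4c6 and H4c8.

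**Figure D3:**
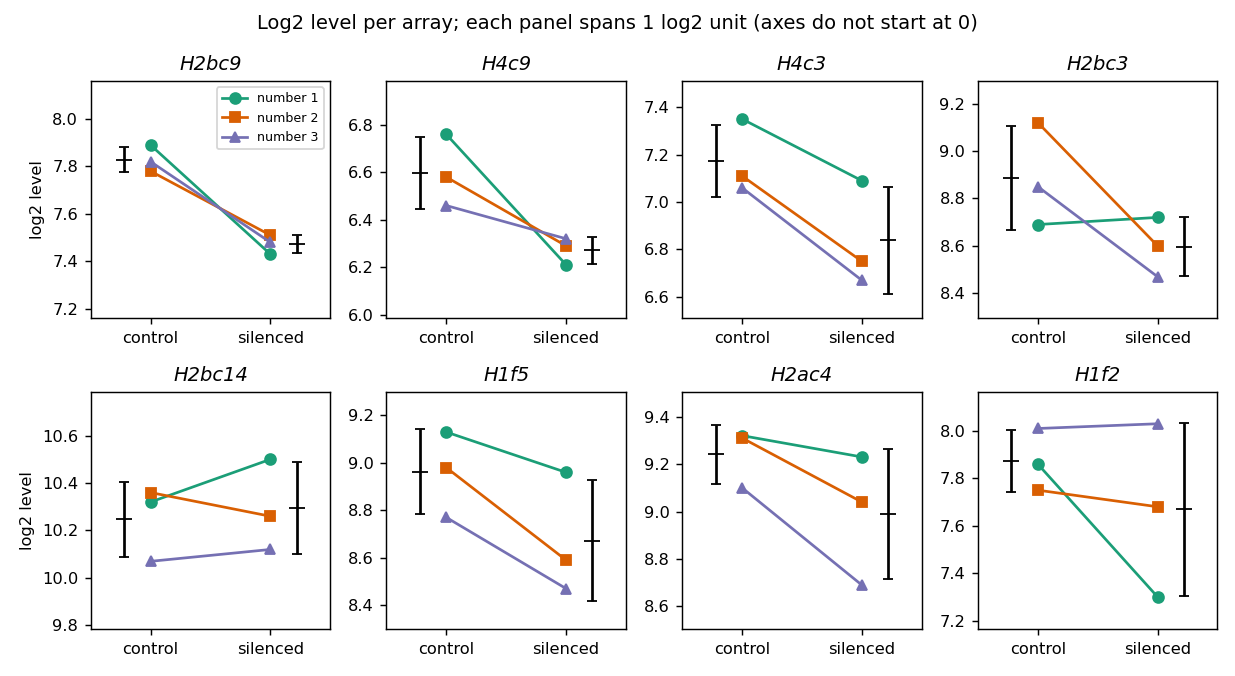
Log2 levels of 8 histone genes in the 3 control and 3 silenced arrays; lines join arrays of the same replicate number, black bars give the mean and SD of each group (n = 3), and each axis spans 1 log2 unit without starting at 0. The groups do not overlap in the panels of H2bc9 and H4c9 and overlap in the other 6.

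Replicate numbers were compared next, with the group in the model, because arrays of equal number deviated together across genes. No histone gene was called by the F test over the 3 numbers (0 of 24; limma, Benjamini-Hochberg, smallest adjusted p 0.127), where 3.12% of all tested genes were. That background of 352 genes ranged from 17 (without control replicate 3 or silenced replicate 3) to 1070 (without control replicate 1) with 1 array left out. At an unadjusted p under 0.05 there were 4: H1f5, H1f1, H4c3 and H2ac4. With a filter at the 60th percentile 3 were called (11.3% of all tested genes), and with a trended, robust eBayes fit also 3 (9.65%), H1f5 and H1f1 both times. Between pairs of numbers 0 histone genes were called as well, with smallest limma adjusted p of 0.146 for 2 minus 1, 0.0674 for 3 minus 1 and 0.515 for 3 minus 2. Of all tested genes, 1.97% were called higher and 0.788% lower in 2 than 1, and 2.28% higher and 2.20% lower in 3 than 1.

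The arrays numbered 3 held lower histone means without a call. Relative to number 1, number 3 was lower in 20 of 24 genes, with a median of -0.13. Relative to number 2 it was lower in 19 of 24, with a median of -0.17. These comparisons share the arrays numbered 3. Of all 11292 tested genes, 5493 were higher in 3 than 1 (median -0.0069) and 5623 higher in 3 than 2 (median -0.00068). Without silenced replicate 3 the histone median of 3 minus 1 was -0.080, and without silenced replicate 2 that of 3 minus 2 was -0.087. Number 2 against number 1 had a median of -0.031, with 10 of 24 genes higher, and 0.0054 without control replicate 2. Both arrays numbered 1 lay above the other 4 in 1 histone gene and below them in 1, where 16.0% and 15.3% of all tested genes did so.

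H1f5, a replication-dependent linker histone, had the smallest p for number. Its levels were 9.13, 8.98 and 8.77 in control and 8.96, 8.59 and 8.47 in silenced arrays, in the order of numbers 1, 2 and 3. Within each group number 1 was highest and number 3 lowest, and the groups overlapped. The means over the arrays of a number were 9.05, 8.79 and 8.62, and 3 minus 1 was -0.43 (SE 0.10, limma adjusted p 0.0674). Silenced minus control was -0.29 (SE 0.15), with a limma p of 0.0937 without and 0.00962 with the block.

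H1f1, another linker histone, had levels of 10.14, 10.07 and 9.78 in control and 9.96, 9.94 and 9.65 in silenced arrays. Both arrays numbered 3 lay below the other 4, and 3 minus 1 was -0.34 (limma adjusted p 0.0923). In H2ac4, an H2A gene, the levels were 9.32, 9.31 and 9.10 against 9.23, 9.04 and 8.69. Silenced 3 was the lowest, number 3 minus 1 was -0.38 (limma adjusted p 0.115), and the groups overlapped.

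H1f2, a linker histone too, ran the other way. Its levels were 7.86, 7.75 and 8.01 in control and 7.30, 7.68 and 8.03 in silenced arrays. Silenced 1 was lowest and both arrays numbered 3 were highest, with 3 minus 1 at 0.44 (limma adjusted p 0.168). Without control replicate 1, which leaves silenced 1 as the only array of that number, 3 minus 1 was 0.71. H4c3 and H2bc14, described above, had 3 minus 1 at -0.35 and -0.32. H2ac1, the germ-cell H2A, had levels of 4.72, 4.91 and 4.74 in control and 4.58, 4.99 and 4.77 in silenced arrays, with both arrays numbered 2 highest. H4c14 completed the 8 genes with the smallest p for number, at an adjusted p of 0.290 by the F test of limma.

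**Figure D4:**
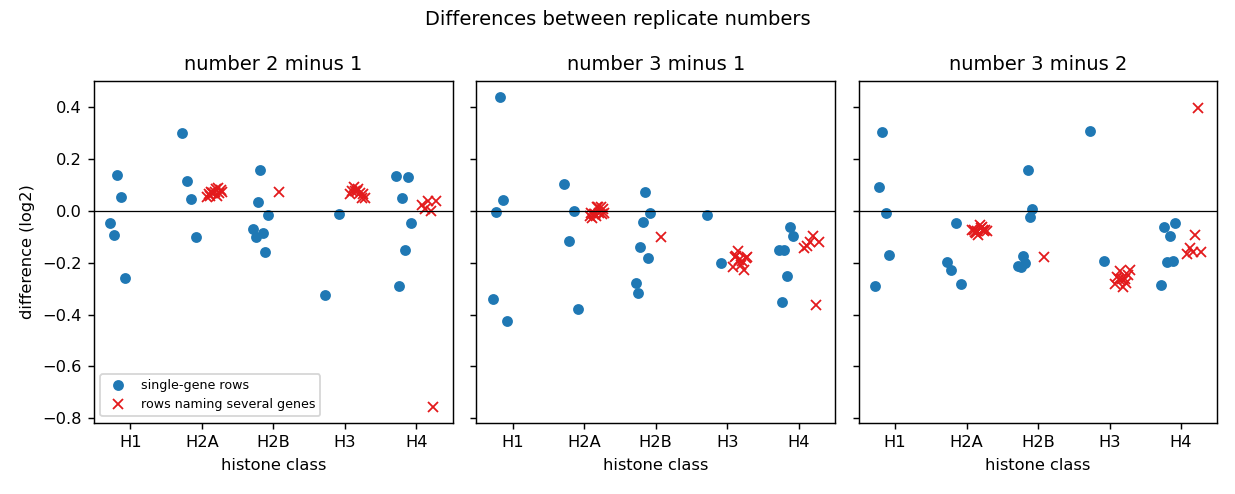
Difference between replicate numbers (log2, 2 arrays a number) by histone class, for the 24 tested single-gene rows (circles) and the rows naming several histone genes of 1 class (crosses). For 3 minus 1, 20 of 24 circles lie below 0, with H1f2 the highest, and the 10 crosses of H3 lie together below 0.

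Rows naming several histone genes do not separate the genes they name, most often paralogs of 1 class. Of the 32 rows, 1 names H2bc6 with H1f4 and 1 names H2A with H3 genes. All 32 had a level above the filter; 26 had a mean above 12, where 1.03% of annotated rows lie, near the top of the measured range. They name 46 genes, 13 of which also have a row of their own, so 65 genes in all fall under the rule. H2bc9, H4c9 and H4c3 are among them, with silenced minus control of -0.36, -0.33 and -0.33 in their own rows. The row naming H2bc9 among 9 H2B genes differed by -0.12, and the rows naming H4c9 by -0.077. Those naming H4c3 differed by -0.016 and -0.012. Many of the 32 rows name overlapping sets of genes and are not replicates of each other. Among the 32 rows, 29 were lower and 3 higher in silenced arrays, with a median of -0.045 and a range of -0.12 to 0.014. None passed (limma adjusted p over 13924 rows; 0% of all rows), and 0 had an unadjusted p under 0.05, where 4.76% of rows did. With the replicate block 0 had one, where 9.80% of rows did. By number 0 of 32 were called (smallest limma adjusted p 0.257), against 1.87% of rows.

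Most of these rows had their lowest mean in number 3. Both arrays numbered 3 lay below both numbered 2 in 31 of 32 rows, 13 of 13 H2A rows included. They lay below both numbered 1 in 22 of 32 rows and in 5 of 13 H2A rows, whose median of 3 minus 1 was -0.0097. The share of all annotated rows with such a separation was not computed. The mean was lower in 3 than 1 in 28 of 32 rows and higher in 2 than 1 in 30 of 32. The 10 H3 rows include the 4 with the smallest p for number. All 10 were lower in number 3 than in numbers 1 and 2 on both arrays, with medians of -0.18 for 3 minus 1 and -0.26 for 3 minus 2. The row of H3c11, H3c10, H3c6, H3c2 and H3c4 held 12.47, 12.46 and 12.20 in control and 12.34, 12.48 and 12.18 in silenced arrays. The row of H3c13, H3c2, H3c15 and H3c14 held 12.29, 12.25 and 12.01 against 12.15, 12.29 and 11.97. In both rows the arrays numbered 3 lay below the other 4 and the control and silenced groups overlapped. Across the 10 H3 rows the median of silenced minus control was -0.053, with 10 of 10 lower. The remaining pair of the 4 H3 rows with the smallest p for number held 12.55, 12.54 and 12.28 against 12.41, 12.60 and 12.26, and 12.44, 12.45 and 12.23 against 12.35, 12.48 and 12.17. The H3 rows name overlapping sets of genes and are not replicates of each other.

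The 13 H2A rows lay between 12.53 and 12.95 on every array, with a median difference of -0.030. The 6 H4 rows had a median of -0.070, and 2 of them held identical values. The row of H4c17 and H4c11 was the most variable of them, at 5.71, 5.99 and 5.78 in control and 6.56, 4.77 and 5.78 in silenced arrays, so the silenced arrays spanned both the highest and the lowest value. A further 6 rows name H4bc24, a symbol outside the rule, beside H2B genes; all 6, of which 2 held identical values, had a lower mean in silenced arrays, by values from -0.11 to -0.062.

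Genes that make, carry or accompany histones were counted from lists taken from textbook knowledge. None of the genes of these lists was called for silenced against control (limma adjusted p; 0% of all tested genes). Outside the small nucleolar RNA genes, 1 of them, Supt6, had an unadjusted p under 0.05. Of 35 tested genes of histone mRNA transcription and processing, 21 were lower and 14 higher in silenced arrays, with a median of -0.012. Nfyb and Nfya, subunits of NF-Y, differed in opposite directions, by -0.24 and 0.18. For number, 2 of the 35 were called, against 3.12% of all genes: Ccne1, the cyclin E partner of Cdk2 (3 minus 1 of -0.86), and Cdk2 (-0.52). Slbp, which binds the stem-loop, had levels of 7.44, 7.17 and 7.20 in control and 7.52, 7.00 and 6.85 in silenced arrays, highest in both arrays numbered 1; it was chosen for its role after its values were seen.

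Of 22 tested histone chaperones and acetyltransferases of new histones, 13 were lower and 9 higher in silenced arrays (median -0.035), with Supt6 at 0.19 and Ubn1 at 0.21. For number 3 were called, against 3.12% of all tested genes, among them Asf1b (3 minus 1 of -0.71) and the CAF-1 subunit Chaf1a (-0.63), both of which deliver new H3 and H4 to replicating DNA. Of 9 tested variant histones outside the rule, 0 were called by number; 6 were lower and 3 higher in silenced arrays, with a median of -0.034. Macroh2a1 differed by 0.16, and H3f3a, which encodes the replication-independent H3.3, by -0.096. Macroh2a1 and Cenpa had the smallest p for number among them, with 3 minus 1 at -0.31 and -0.17.

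DNA replication genes, expressed with the histone genes in S phase, were mostly highest in both arrays numbered 1. Of 36 tested S phase and licensing genes, 7 were called by the F test for number (3.12% of all tested genes), and 12 fell in 3 against 1 (2.20% of all; limma adjusted p). Both arrays numbered 1 lay above the other 4 in 30 of the 36, where 16.0% of all tested genes did so. The list medians were -0.39 for 2 minus 1, -0.46 for 3 minus 1 and -0.021 for 3 minus 2, where the histone genes had -0.031, -0.13 and -0.17; the difference between these lists was not tested. Clspn and Uhrf1 had 3 minus 1 at -0.90 and -0.79. For silenced against control 26 of the 36 were lower and 10 higher, with a median of -0.082, and Pola1 and Mcm6 differed by -0.30 and -0.29.

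Mitotic genes were ordered by number as well: 9 of 19 were called by the F test (3.12% of all tested genes) and 14 fell in 3 against 1 (2.20%), with a median of -0.62 for 3 minus 1. Birc5 and Aurkb, of the chromosomal passenger complex, had 3 minus 1 at -0.85 and -0.75. For silenced against control 11 were lower and 8 higher, with a median of -0.023, with Ccnb2 at 0.16 and Ncapg at -0.20. Of 15 tested genes of cell cycle exit, 2 were called by number, against 3.12% of all tested genes: Gadd45a rose in 3 against 1 (0.79) and Ccnd1 fell (-0.57). Cdkn1a and Rbl2 differed by 0.15 and 0.16 between silenced and control arrays. The share of cycling cells in each array was not measured, and its part in the histone values was not tested.

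Small nucleolar RNA genes, listed because their RNAs also lack a poly(A) tail, leaned the same way as the histone genes for silenced against control. Of 56 tested, 48 were lower and 8 higher, with a median of -0.16, where 5341 of all 11292 tested genes were lower. At an unadjusted p under 0.05 there were 9, all of them lower, where 223 of all 11292 tested genes were lower. Their median deviations were 0.068, 0.059 and 0.073 in control and 0.033, -0.18 and -0.090 in silenced arrays. In Snora34 the levels were 8.61, 8.60 and 8.66 in control and 8.21, 8.03 and 8.21 in silenced arrays, a difference of -0.47 with no overlap, and Snora69 differed by -0.31. By the F test for number 0 were called, where 3.12% of all tested genes were. Snord58b and Snora44 had the smallest adjusted p in it, 0.0552 and 0.0672 (limma). In 3 against 1, 1 was called higher and 1 lower, where 2.28% and 2.20% of all tested genes were. RNA quality per array is not given in the sources used here beyond a shared minimum, and its part in these differences was not tested.

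**Figure D5:**
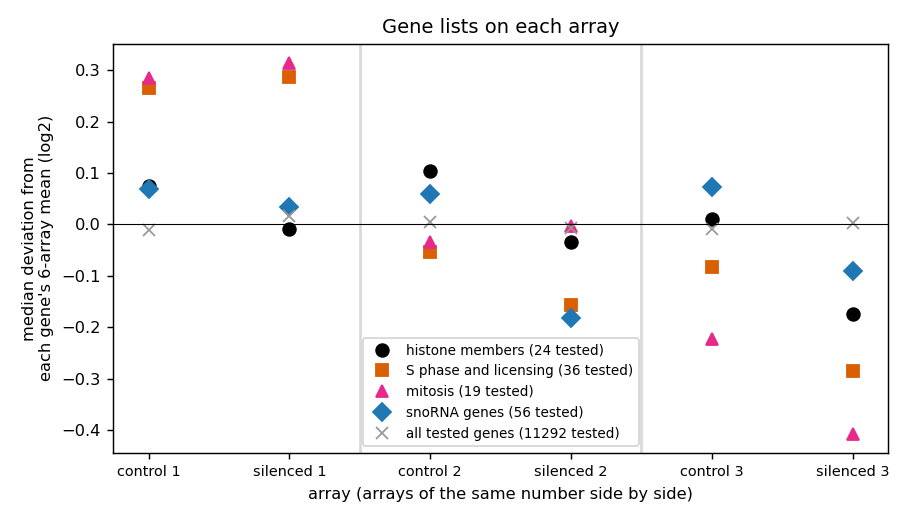
Median deviation from each gene's own 6-array mean (log2) on each array, for the histone genes, 3 other lists and all tested genes. The S phase and mitosis symbols are highest on both arrays numbered 1, and the histone symbol is lowest on silenced 3, at -0.17.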

How the data were processed

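Total RNA of 6 C2C12 myotube samples was hybridised to Affymetrix whole-transcript arrays. The authors deposited log2 values per probe set; per the submitters' processing notes they used RMA (version and software: not given in the sources used here). Of 35556 rows, 23099 carry a gene symbol in the platform annotation and 21218 carry 1 symbol. The highest-mean row stood for each gene. Genes with a mean above the 40th percentile were tested with limma 3.58.1 (R 4.3.3, lmFit and eBayes, 2-sided, Benjamini-Hochberg over all tested genes, threshold 0.05). The fits were first run on simulated data with independent noise and changes larger than those of the histone genes. That run does not bear on differences as small as theirs. Silenced was compared with control without covariates, and replicate number with group in the model; rows naming several genes were fitted in a separate run over all annotated rows. Alternatives changed the filter, normalization, row choice, eBayes settings, replicate block and arrays left out.

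Replicate numbers come from the sample titles, which do not say what a number shares. Deviations from the group means correlated at 0.55, 0.35 and 0.42 between the arrays of numbers 1, 2 and 3, and all 6 arrays correlated best with their own number, so numbers were taken to pair the arrays. The number of arrays limits the precision.

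Genes named with array values were the 4 tested histone genes with the smallest p in each direction for silenced against control (2 in the higher direction), the 8 with the smallest p for number, any with 2 rows, and 4 rows naming several histone genes. H1f3, H2ac15, H2bc18, H2ac21, H4c4 and the H4c17 and H4c11 row were added after their values were seen. Of the other lists, the 2 genes with the smallest p for number and the 2 for group were named. The histone genes and all lists were chosen with earlier results of these data known. Promoters and the miRNA are RefSeq's (GRCm38.p6); motifs were matched exactly.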

Additional observations from a re-analysis of the deposited data

How the results depend on the processing

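No histone gene was called for silenced against control in any of the 16 alternatives (limma), nor any row naming several histone genes. The replicate block left 0 called, raised the histone genes under an unadjusted p of 0.05 from 3 to 8, and changed no other call; that count was 6 without silenced replicate 1 and 1 without both arrays numbered 2. The median difference of the histone genes lay between -0.21 and -0.10 in the 16 alternatives; it moved most with a filter at the 60th percentile, to -0.21 over 17 genes, and lay between -0.19 and -0.10 when 1 array was left out. Calls by replicate number depended on the settings, and over all genes the F test called 352 at first, 58 with no filter and 17 to 1070 with 1 array left out. The F test called 3 with the 60th percentile filter (H1f5, H1f1 and H4c3; 11.3% of all genes) and 3 with a trended, robust eBayes fit (H1f5, H1f1 and H2ac4; 9.65%). Pairs of numbers gave 4 calls with that filter (10.8%), 1 with median-centred arrays (H1f5; 5.57%) and 5 with the trended fit (9.60%), which also called 10 H3 rows by number (8.32%). With 1 array left out the F test called 0 to 1 (H1f2, without control replicate 1; 9.48%), pairs 0 to 4 (4 without control replicate 1: 1 for 2 minus 1, where 9.17% of all genes were called, and 3 for 3 minus 1, where 8.92% were) and rows 0 to 1 (without control replicate 1; 8.53% of rows), the lone array of a number being assumed to vary like the others. H2bc4 turned to -0.063 as the mean of its rows; leaving out silenced replicate 3 or 2 gave 0.00055 or 0.095. H2bc14 lay between -0.056 and 0.14 with 1 array left out, turning to -0.042 without control replicate 3, -0.056 without silenced replicate 1 and -0.021 without both arrays numbered 1. Apart from the arrays left out and the genes tested, the cause was not tested.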
